A study of Mus musculus with 14 samples.

Results

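The comparison described here is the change between postnatal day 3 (P3) and day 7 (P7) in male germ cells that lack both H3K9 demethylases JMJD1A and JMJD1B. It sets 2 P7 double knockout (P7 DKO) libraries against 2 P3 DKO libraries, 4 of the 14 libraries of the study, chosen by genotype and age alone. A gene entered when 2 or more of the 4 libraries held 1 RPKM or more of it, which kept 14049 of 24340 genes and left out 10291. RPKM are read numbers scaled for transcript length and library depth, as deposited by the authors, and all tests used log2(RPKM + 1), a scale that understates the change of genes with low values.

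The study profiled RNA of male germ cells from testes of C57BL/6 mice in 7 groups of 2 libraries. P7 DKO and P3 DKO animals carried Vasa-Cre, a Cre recombinase driven by a germline promoter, and had the genotype Jmjd1a-/- with Jmjd1b-/-. The P7 and P3 control groups (P7 Ctrl and P3 Ctrl) carried Vasa-Cre as well and kept 1 copy of each gene, Jmjd1a-/+ with Jmjd1b-/+, so each group compared here had Cre and at least 1 lost copy of both genes. The other 3 groups, wild type and the single knockouts at P3, entered the model only to estimate the spread. No step that purifies germ cells is described in the labels. They also do not give the number of animals behind a pair of replicates, and the p-values then rest on a spread between libraries that may be technical.

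JMJD1A (gene symbol Kdm3a in the files) and JMJD1B (Kdm3b) remove mono- and dimethyl groups from lysine 9 of histone H3, marks tied to gene silencing. In the days after birth, male germ cells called prospermatogonia resume dividing and become spermatogonia. Some form the stem cell pool, which depends on GDNF signalling through the receptors GFRA1 and RET, while others respond to retinoic acid, switch on Stra8 and Kit and move towards meiosis.

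Depth, estimated from the step size of low RPKM values, was 25000000 and 23950000 fragments in P7 DKO and 51200000 and 56300000 in P3 DKO. It was 23650000 and 27450000 fragments in P7 Ctrl and 44150000 and 48500000 in P3 Ctrl, so age and depth moved together in both genotypes. The sums of RPKM were 620451 and 690468 in P7 DKO and 464450 and 458653 in P3 DKO. Across tested genes replicates correlated at r = 0.969 in P7 DKO and 0.976 in P3 DKO. Of genes averaging at least 5 RPKM, 205 of 9017 differed at least 2-fold between the P7 DKO replicates, and 73 of 9626 between the P3 DKO replicates. In a bulk sample, fewer cells of a type and less RNA per cell cannot be told apart, which holds for every fall and rise below.

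Between P3 and P7 the DKO germ cells changed across most of their transcriptome. Genes of DNA replication and mitosis, the meiotic entry genes Stra8 and Dmrtb1 and the meiotic chromosome genes Sycp1 and Sycp3 were higher at P7. Other genes of meiotic entry and of meiotic chromosomes were lower, Sohlh1, Rad21l and Syce3 among them, and Kit was not called in either direction. Stem cell genes such as Foxc2, Lhx1 and Gfra1, the piRNA factor Piwil4 and the imprinted RNA H19 were lower. In the same lists Sox3, Nanos3, Tdrkh, Snrpn and Impact were higher, and the stem cell gene Zbtb16 was among those not called. In the limma model, 4123 genes (29.3% of those tested) were higher and 4373 (31.1%) lower in P7 DKO than in P3 DKO at a Benjamini-Hochberg adjusted p under 0.05, 60.5% in all. At least 2-fold differences were reached by 1224 higher (8.71%) and 2475 lower genes (17.6%). The libraries of the 2 ages did not overlap at 11394 genes (81.1%), so a lack of overlap marks most genes.

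At least 1 RPKM in both P3 DKO libraries and in neither P7 DKO library was recorded for 1759 genes, and the converse for 131 genes. These entered through P3 DKO alone or through P7 DKO alone and had to differ in that direction, so their falls and rises are descriptions and their p-values no separate evidence, which is said at each gene named below that is one of them. A total of 11450 genes reached 1 RPKM in all 4 libraries. The median log2 change was -0.01 over all tested genes. Scaling every library to the same sum of RPKM shifts that median to -0.45, with 1621 genes higher and 6902 lower, so directions of small changes depend on the scaling, and a list is read below against the median of all genes. The change also moved with transcript length, with medians of 0.29, 0.09, -0.01, -0.08 and -0.21 in 5 classes of equal size, ordered from the shortest to the longest transcripts. The part of length in each result was not tested beyond centring libraries within 10 length classes.

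The targeted genes were checked in every library. Kdm3a, on chromosome 6 at 71588972 to 71632990 (GRCm38), had 8.97 and 7.59 RPKM in P7 DKO libraries, against 12.1 and 14.3 RPKM in P3 DKO libraries. P7 Ctrl libraries had 27.2 and 27.1 RPKM and P3 Ctrl libraries 28.4 and 26.3 RPKM. All 4 DKO libraries therefore lay below all 4 Ctrl libraries, and the P7 DKO libraries below the P3 DKO ones (log2 change -0.62 ± 0.11 SE, limma adjusted p = 0.000922); changes below are given in the same way, as log2 change ± SE with that adjusted p. Kdm3b had 6.49 and 6.73 RPKM in P7 DKO and 4.26 and 4.48 RPKM in P3 DKO, against 17.3 and 16.1 RPKM in P7 Ctrl and 10.2 and 13.5 RPKM in P3 Ctrl. Its change in DKO cells did not pass the test (0.50 ± 0.21, adjusted p = 0.0598), though it passed when fewer groups shared the spread, and with quantile normalization it was 0.78 and passed. A value over a whole transcript includes exons outside a deleted part, and the labels do not name the deleted exons.

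**Figure D1:**
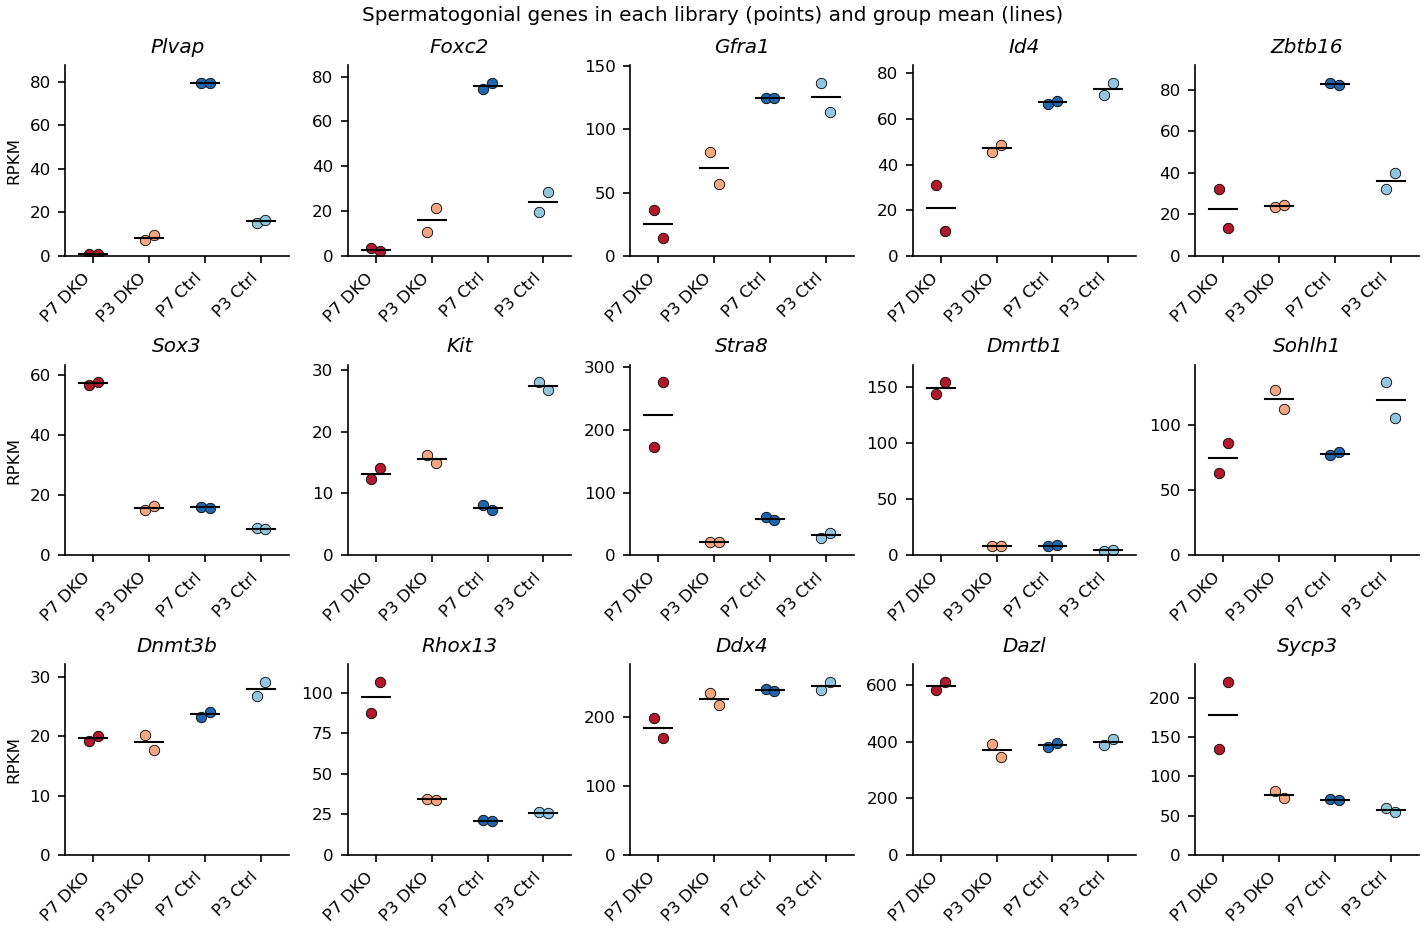
RPKM of 15 spermatogonial genes in each library (points) with the mean of each group (lines), in P7 DKO, P3 DKO, P7 Ctrl and P3 Ctrl. Stra8 lies at 172 and 276 RPKM in P7 DKO against 21.3 and 20.7 in P3 DKO, while Plvap lies at 0.749 and 0.895 in P7 DKO against 7.197 and 9.38 in P3 DKO and is higher with age in Ctrl, at 79.2 and 79.5 in P7 Ctrl against 15.03 and 16.7 in P3 Ctrl.

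The genes of meiotic entry gave some of the largest rises. Dmrtb1 encodes a DMRT transcription factor that in mouse controls the switch of spermatogonia from mitosis to meiosis. It had 143 and 154 RPKM in P7 DKO libraries, against 8.25 and 8.46 RPKM in P3 DKO libraries (log2 change 4.0 ± 0.17, adjusted p = 1.73e-06). The 2 ages did not overlap, and the P7 DKO libraries also stood above the Ctrl libraries, with 7.86 and 9.502 RPKM in P7 Ctrl and 4.28 and 4.35 RPKM in P3 Ctrl. Stra8, the retinoic acid target needed for meiotic initiation, had 172 and 276 RPKM in P7 DKO, against 21.3 and 20.7 RPKM in P3 DKO (3.31 ± 0.27, adjusted p = 3.03e-05). Ctrl cells had 61.03 and 55.98 RPKM at P7 and 27.7 and 35.9 RPKM at P3, a smaller rise (0.87 ± 0.27, adjusted p = 0.0435).

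Sohlh2, a helix-loop-helix factor of spermatogonial differentiation, had 226 and 239.7 RPKM in P7 DKO, against 48.3 and 43.8 RPKM in P3 DKO (2.31 ± 0.10, adjusted p = 1.73e-06), whereas it was lower in P7 Ctrl (50.8 and 52.4 RPKM) than in P3 Ctrl (65.4 and 69.6 RPKM; -0.38 ± 0.10, adjusted p = 0.0194). Its partner Sohlh1 went the other way in DKO cells, with 63.2 and 86.3 RPKM at P7 and 127 and 112 RPKM at P3 (-0.69 ± 0.19, adjusted p = 0.0099), and this call is lost without P7 DKO replicate 1 or without P3 DKO replicate 1. Rhox13, an X-linked homeobox gene of differentiating spermatogonia, had 87.6 and 107 RPKM in P7 DKO and 34.5 and 33.8 RPKM in P3 DKO (1.47 ± 0.11, adjusted p = 2.03e-05). Dmrt1, a regulator of spermatogonial fate upstream of Stra8, had 397 and 392 RPKM in P7 DKO and 175 and 166 RPKM in P3 DKO (1.21 ± 0.09, adjusted p = 1.72e-05).

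Kit, the receptor that marks differentiating spermatogonia, did not pass the test in DKO cells (-0.22 ± 0.20, adjusted p = 0.35). It had 12.3 and 14.1 RPKM in P7 DKO and 16.1 and 14.9 RPKM in P3 DKO, against 8.102 and 7.26 RPKM in P7 Ctrl and 28.0 and 26.7 RPKM in P3 Ctrl (-1.71 ± 0.20, adjusted p = 0.00128). The libraries of the 2 ages lay closer together in DKO cells than in Ctrl cells. Dnmt3b, the de novo DNA methyltransferase of differentiating spermatogonia, did not pass either, with 19.2 and 20.1 RPKM in P7 DKO and 20.2 and 17.7 RPKM in P3 DKO (0.05 ± 0.10, adjusted p = 0.68), and its change is -0.43 at equal sums of RPKM. The list of differentiating spermatogonia and meiotic entry had 17 of 20 genes in the files, all 17 at or above 1 RPKM in all 4 libraries. Of these, 7 were higher and 2 lower, beside 29.3% and 31.1% of all tested genes. The median was 0.20 and turns to -0.24, with 5 higher and 5 lower, at equal sums of RPKM, where that of all genes is -0.45. The 2 lower members were Sohlh1 and Prss50, a testis protease named after its value was seen, and leaving out 1 of 3 DKO libraries (P7 replicate 1, P3 replicate 1, P3 replicate 2) left 1, 0 and 1 of them.

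Meiotic chromosome genes rose in part. Sycp1, the transverse filament of the synaptonemal complex, had 113 and 139.7 RPKM in P7 DKO libraries, against 42.03 and 36.9 RPKM in P3 DKO libraries (1.65 ± 0.20, adjusted p = 0.000129). Sycp3, a component of the chromosome axis, had 134 and 221 RPKM in P7 DKO and 80.98 and 72.1 RPKM in P3 DKO (1.16 ± 0.24, adjusted p = 0.00239), with P7 replicate 2 well above P7 replicate 1 and both above the P3 libraries. Stag3, a meiotic cohesin subunit chosen after its values were seen, had 158 and 154 RPKM in P7 DKO and 86.7 and 59.9 RPKM in P3 DKO (1.104 ± 0.14, adjusted p = 0.000159).

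Other members fell. Spo11, which makes the breaks that start recombination and entered through P3 DKO alone, had 0.994 and 0.7802 RPKM in P7 DKO and 4.35 and 4.14 RPKM in P3 DKO (-1.48 ± 0.32, adjusted p = 0.00294). The cohesin kleisin Rad21l was lower (-1.45 ± 0.22, adjusted p = 0.000352), as was the synaptonemal complex protein Syce3 (-1.19 ± 0.21, adjusted p = 0.000909). Of 28 members in the files, 13 were higher and 4 lower, beside 29.3% and 31.1% of all tested genes. The median of 0.36 turns to -0.11 with 8 higher and 7 lower at equal sums of RPKM, 0.34 above the median of all genes there. In Ctrl cells 1 was higher and 6 lower (backgrounds 10.5% and 14.3%), with a median of -0.02. All but 2 of the 28 reached 1 RPKM in all 4 DKO libraries.

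Spermatid genes were mostly at low values. Of 22 listed, 9 passed the filter, and of these 3 were higher and 4 lower, beside 29.3% and 31.1% of all tested genes. Tnp1, a transition protein of condensing spermatids, had 3.57 and 3.72 RPKM in P7 DKO and 21.05 and 23.2 RPKM in P3 DKO (-2.31 ± 0.24, adjusted p = 6.69e-05). Ldhc, the germ cell lactate dehydrogenase, had 3.68 and 2.41 RPKM in P7 DKO and 17.7 and 16.99 RPKM in P3 DKO (-2.20 ± 0.19, adjusted p = 3.35e-05). Zpbp and Spaca1, proteins of the acrosome, were higher, with changes of 1.105 ± 0.14 and 0.86 ± 0.23 (SE), Zpbp having entered through P7 DKO alone and the Spaca1 call being lost without P7 DKO replicate 1, without P3 DKO replicate 2 and at equal sums, while Izumo1, the sperm protein of gamete fusion, was lower (-1.30 ± 0.18, adjusted p = 0.000262). The protamines Prm1 and Prm2, which replace histones in sperm, did not reach the filter.

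Promoter stretches of some genes named in this report are shown as a description of the letters they hold. Whether these elements take part in the changes was not tested. They come from RefSeq promoters on GRCm38.p6, which run from 250 bases before the gene start to 50 bases after it. The search took the 250 bases before the start and left out the 50 after it, and capitals mark the element. The E2F element TCCCGC, which reads GCGGGA on the other strand, is bound by factors that drive replication genes, AGGTCA, which reads TGACCT on the other strand, is the recognition unit of nuclear receptors such as those for retinoic acid, and CACGTG is an E-box, the same on both strands. No element searched contains the letters of another.
Chaf1b: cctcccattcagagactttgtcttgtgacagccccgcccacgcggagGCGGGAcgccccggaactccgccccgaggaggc
Rrm2: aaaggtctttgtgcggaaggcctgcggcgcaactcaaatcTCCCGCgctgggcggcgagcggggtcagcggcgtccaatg
Mcm5: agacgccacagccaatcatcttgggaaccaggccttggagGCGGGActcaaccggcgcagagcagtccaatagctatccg
Stra8: gcagcctggggtaccAGGTCAgttttttac
Sycp1: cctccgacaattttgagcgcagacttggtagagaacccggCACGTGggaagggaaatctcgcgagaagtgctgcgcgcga
Chaf1b lies at chr16:93883821-93883900, Rrm2 at chr12:24708130-24708209 and Mcm5 at chr8:75109421-75109500, all on the plus strand, with the E2F element shown starting 33, 84 and 48 bases before the gene start. The Stra8 stretch, at chr6:34920895-34920924 on the plus strand, has its element 38 bases before the RefSeq start and also lies within an exon of a longer GENCODE transcript, while no GENCODE exon overlaps the other 4 stretches. The Sycp1 stretch lies at chr3:102936155-102936234 on the minus strand, with the E-box starting 94 bases before the gene start.

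In the 250 bases before the start, TCCCGC on either strand was held by 15 of 24 S phase genes with a promoter in the table (62.5%), by 11 of 22 genes of G2 and mitosis (50%), by 10 of 23 meiotic prophase genes (43.5%) and by 6 of 14 genes of the differentiation list (42.9%). The same letters were held by 30.6% of 10315 tested protein-coding genes with a promoter and by 16.9% of all 27025 RefSeq promoters. CACGTG was held by 6 meiotic prophase genes (26.1%), 2 of the differentiation list (14.3%), 1 of S phase (4.17%) and 1 of G2 and mitosis (4.55%), beside 8.81% of the tested protein-coding genes and 6.05% of all promoters. AGGTCA was held by 3 genes of the differentiation list (21.4%), 4 of S phase (16.7%), 3 of G2 and mitosis (13.6%) and 2 of meiotic prophase (8.7%), beside 10.6% of the tested protein-coding genes and 13.8% of all promoters. CCTCAG, which reads CTGAGG on the other strand and is the core of the motif of STRA8 with its partner MEIOSIN, was held by 9 S phase genes (37.5%), 5 of the differentiation list (35.7%), 6 of meiotic prophase (26.1%) and 3 of G2 and mitosis (13.6%), beside 22.1% of the tested protein-coding genes and 22.2% of all promoters, so its share was as high in the S phase list as in the list of meiotic entry. Among all genes called higher and lower in P7 DKO, TCCCGC was held by 32.4% and 27.1% of promoters, beside 30.4% of all tested genes. For CACGTG these shares were 9.17% and 8.07% beside 8.75%, and for AGGTCA 10.6% and 11.4% beside 10.6%. For CCTCAG they were 21.8% and 22.8% beside 22.3%, so the shares among called genes lay near those of all tested genes. A match is a description of these letters and not a bound site.

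Genes of DNA replication were higher across almost the whole list. Of 30 S phase genes, 29 were higher and none lower in the limma test, beside 29.3% and 31.1% of all tested genes. All 30 lay at or above 1 RPKM in each of the 4 libraries. At an unadjusted p under 0.05 in limma, which 9138 of all 14049 genes passed in either direction, the counts were 29 and 0. The list median was 0.93, and at equal sums of RPKM 18 of the 30 were higher and 1 lower, with a median of 0.43. Changes ran from -0.37 to 1.72, and 14 members were called and at least 2-fold higher. In Ctrl cells 1 was higher and 2 lower, with a median of 0.04. The difference of the 2 age changes passed the test upward for 22 of the 30 and downward for none, beside 13.1% and 11.6% of all tested genes. At equal sums it passed for 14 and 1, beside 597 and 3226 of all genes. At an unadjusted p under 0.05 in limma, which 5459 of all 14049 genes passed in either direction, it did so for 26 and 1.

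Chaf1b, a subunit of the chromatin assembly factor that follows the replication fork, had 156 and 97.8 RPKM in P7 DKO libraries, against 42.9 and 31.5 RPKM in P3 DKO libraries (1.72 ± 0.21, adjusted p = 0.000124). Gins2, a subunit of the replicative helicase, had 49.3 and 46.0 RPKM in P7 DKO and 14.3 and 13.3 RPKM in P3 DKO (1.72 ± 0.16, adjusted p = 4.68e-05). Rrm2, the regulatory subunit of ribonucleotide reductase, had 67.7 and 61.5 RPKM in P7 DKO and 20.0 and 21.96 RPKM in P3 DKO (1.58 ± 0.24, adjusted p = 0.00044). In each of these genes the libraries of the 2 ages were apart, and the P7 Ctrl libraries stood between them.

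The clamp loader subunit Rfc3 had 137 and 139 RPKM in P7 DKO and 45.8 and 44.6 RPKM in P3 DKO (1.59 ± 0.16, adjusted p = 6.16e-05), and the thymidylate synthase Tyms had 19.5 and 17.4 RPKM in P7 DKO and 6.24 and 5.89 RPKM in P3 DKO (1.46 ± 0.29, adjusted p = 0.00166). Mcm5, a subunit of the same helicase as Gins2, whose promoter is shown above and which was chosen after its values were seen, had 148 and 139 RPKM in P7 DKO and 68.9 and 67.6 RPKM in P3 DKO (1.06 ± 0.12, adjusted p = 9.55e-05). The single member that did not pass was Pola1, the catalytic subunit of the polymerase that starts each DNA strand, with 9.11 and 7.12 RPKM in P7 DKO and 9.27 and 12.4 RPKM in P3 DKO (-0.37 ± 0.19, adjusted p = 0.105). It was named after its value was seen.

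The genes of G2 and mitosis followed. Of 27 members, 24 were higher in P7 DKO and none lower, beside 29.3% and 31.1% of all tested genes, with a median of 0.87. At an unadjusted p under 0.05, which 9138 of all 14049 genes passed in either direction, the limma counts were 25 and 0. The count is 15 without P3 DKO replicate 2 and 16 without P7 DKO replicate 1, and it is 9 higher and none lower at equal sums of RPKM, where the median is 0.37. In Ctrl cells 5 were higher and none lower (backgrounds 10.5% and 14.3%), with a median of 0.40. The difference of the age changes passed for 3 of 27, all upward, near the 13.1% of all tested genes. At equal sums it passed for 1, downward. The changes of the 27 members ran from 0.26 to 1.48. Plk1, a kinase of mitotic entry, had 60.7 and 45.5 RPKM in P7 DKO, against 17.4 and 18.98 RPKM in P3 DKO (1.48 ± 0.35, adjusted p = 0.00448). Birc5, the survivin subunit of the chromosomal passenger complex, had 78.1 and 83.9 RPKM in P7 DKO and 31.8 and 26.9 RPKM in P3 DKO (1.44 ± 0.28, adjusted p = 0.00145). Cdk1, Tpx2 and Cdc20, which drive mitotic entry, spindle assembly and exit, had log2 changes of 1.38 ± 0.37, 1.22 ± 0.32 and 1.20 ± 0.19 (SE). The Cdk1 call is lost without P7 DKO replicate 1 and the Tpx2 call at equal sums.

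Of 13 D cyclins and inhibitors of the cell cycle, 3 were higher and 4 lower, shares near the 29.3% and 31.1% of all tested genes. At equal sums of RPKM 1 was higher and 8 lower, with a median of -0.50 beside -0.45 for all genes. Cdkn1b, the inhibitor p27 of cyclin-dependent kinases, had 2.99 and 3.52 RPKM in P7 DKO, against 16.1 and 15.4 RPKM in P3 DKO (-1.98 ± 0.14, adjusted p = 1.72e-05). Its values in Ctrl cells were 9.25 and 10.7 RPKM at P7 and 12.3 and 10.98 RPKM at P3, between those of the DKO ages. Ccnd1, a D cyclin of the G1 phase, had 49.5 and 48.2 RPKM in P7 DKO and 12.9 and 23.9 RPKM in P3 DKO (1.42 ± 0.33, adjusted p = 0.00407). Ccnd3 was lower (-1.15 ± 0.24, adjusted p = 0.00217), and so were the inhibitors Cdkn1a (-1.04 ± 0.29, adjusted p = 0.0102) and Cdkn1c (-0.93 ± 0.24, adjusted p = 0.00665), the Cdkn1a call being lost without P7 DKO replicate 2 or without P3 DKO replicate 2 and the Cdkn1c call without P3 DKO replicate 2.

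**Figure D2:**
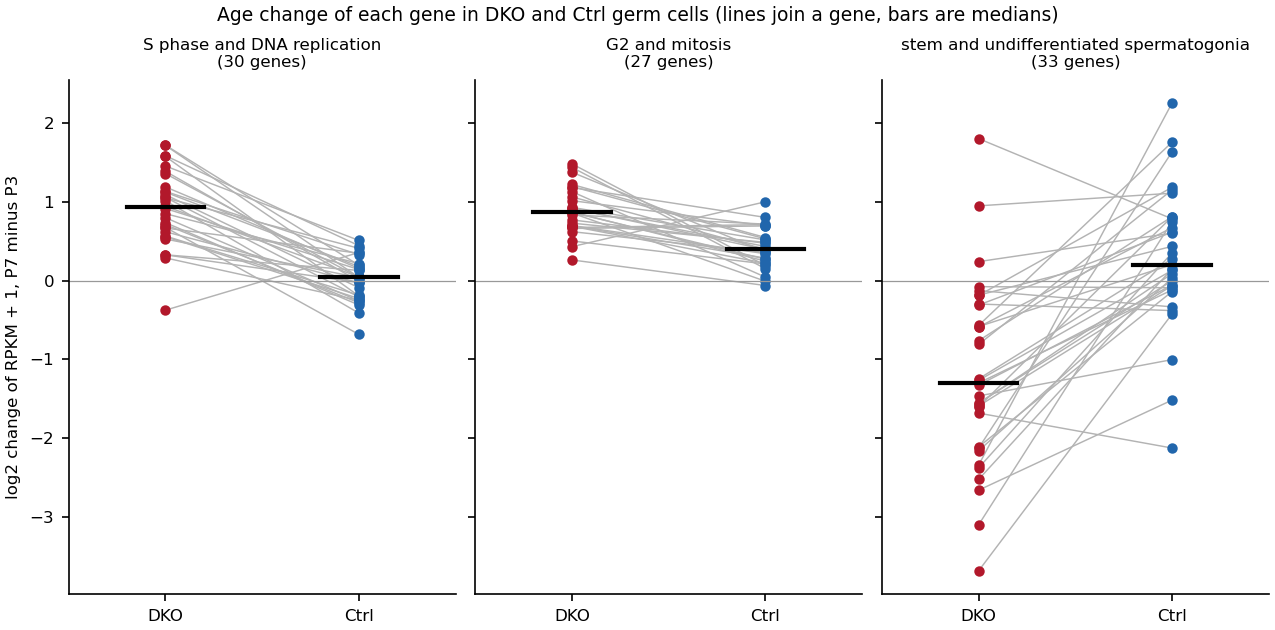
Log2 change of RPKM + 1 between P3 and P7 for each gene of 3 lists, in DKO and in Ctrl cells; lines join a gene and black bars are medians. The S phase median is 0.93 in DKO and 0.04 in Ctrl, that of G2 and mitosis 0.87 and 0.40, and that of the stem cell list -1.30 and 0.20.

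Most markers of stem and undifferentiated spermatogonia were lower at P7 in DKO cells. All 34 listed genes were in the files and 33 were tested, Pdx1 falling under the filter. Of the 33, 2 were higher and 21 lower in P7 DKO, beside 29.3% and 31.1% of all tested genes. The median was -1.30 beside -0.01 for all genes. At or above 1 RPKM in all 4 libraries were 26 of them, and 5 entered through P3 DKO alone (Plvap, Eomes, Pax7, T and Shisa6), so that those 5 had to be lower. All 5 are among the 21, which leaves 16 lower of the other 28. Over all tested genes that did not enter through P3 DKO alone, 2750 of 12290 were lower. In Ctrl cells 9 were higher and 2 lower (backgrounds 10.5% and 14.3%), with a median of 0.20. The difference of the age changes passed downward for 18 and upward for 1, beside 11.6% and 13.1% of all tested genes. Changes in DKO cells ran from -3.68 for T to 1.80 for Sox3, and 19 members were called and at least 2-fold lower.

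Foxc2, a forkhead factor of stem spermatogonia, had 3.64 and 1.97 RPKM in P7 DKO and 10.8 and 21.2 RPKM in P3 DKO (-2.12 ± 0.29, adjusted p = 0.000214). Its Ctrl libraries had 74.3 and 77.3 RPKM at P7 and 19.6 and 28.5 RPKM at P3, higher with age. Plvap, a membrane protein that marks a stem cell subset and entered through P3 DKO alone, had 0.749 and 0.895 RPKM in P7 DKO libraries, against 7.197 and 9.38 RPKM in P3 DKO libraries (-2.34 ± 0.19, adjusted p = 2.69e-05). In Ctrl cells it had 79.2 and 79.5 RPKM at P7 and 15.03 and 16.7 RPKM at P3 (2.26 ± 0.19, adjusted p = 0.000318), again higher with age.

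The transcription factors Lhx1, Eomes, Pax7 and T, which mark undifferentiated spermatogonia in mouse, all had lower values at P7, but Eomes, Pax7 and T entered through P3 DKO alone. Lhx1, which did not, had 3.73 and 1.23 RPKM in P7 DKO and 17.9 and 17.4 RPKM in P3 DKO (-2.52 ± 0.27, adjusted p = 7.63e-05), and Eomes had 0.485 and 0.181 RPKM in P7 DKO and 5.42 and 6.37 RPKM in P3 DKO (-2.38 ± 0.17, adjusted p = 1.88e-05). Pax7 had 0.0392 and 0 RPKM in P7 DKO and 9.24 and 6.45 RPKM in P3 DKO (-3.10 ± 0.22, adjusted p = 1.72e-05). T, also called brachyury, had 0.671 and 0.361 RPKM in P7 DKO and 18.04 and 18.7 RPKM in P3 DKO (-3.68 ± 0.20, adjusted p = 6.48e-06), against 18.5 and 17.6 RPKM in P7 Ctrl and 24.5 and 24.6 RPKM in P3 Ctrl. Pax7 was near 0 in both P7 DKO libraries, a level that no Ctrl library reached. Epha2, an ephrin receptor, fell in both genotypes, with 7.36 and 2.97 RPKM in P7 DKO and 34.9 and 35.9 RPKM in P3 DKO (-2.66 ± 0.41, adjusted p = 0.000398).

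Gfra1 and Id4 were lower at P7 but differed between the P7 DKO replicates. Gfra1, the GDNF co-receptor, had 36.5 and 13.99 RPKM in P7 DKO, against 82.3 and 57.1 RPKM in P3 DKO (-1.55 ± 0.38, adjusted p = 0.00557). Id4, a regulator of the stem cell state, had 30.9 and 10.97 RPKM in P7 DKO and 45.4 and 48.8 RPKM in P3 DKO (-1.30 ± 0.34, adjusted p = 0.00736). In both genes P7 DKO replicate 2 stood far below replicate 1, and both stood below the P3 DKO libraries. Ret, the signalling receptor, had 45.2 and 13.9 RPKM in P7 DKO and 62.8 and 66.9 RPKM in P3 DKO (-1.33 ± 0.40, adjusted p = 0.0162), and the GDNF target Etv5 had 51.9 and 19.5 RPKM in P7 DKO and 82.3 and 72.4 RPKM in P3 DKO (-1.25 ± 0.33, adjusted p = 0.00768). Both were chosen after their values were seen. Of the 33 stem cell genes, 10 were at least 2-fold higher in P7 DKO replicate 1 than in replicate 2 and 1 the other way, while over all tested genes these counts were 215 and 85. No stem cell gene differed 2-fold between the P3 DKO replicates. Without P7 DKO replicate 1 the list median was -1.93 with 25 lower, and without P7 DKO replicate 2 it was -0.89 with 20 lower.

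Zbtb16, the zinc finger factor PLZF of undifferentiated spermatogonia, did not pass the test in DKO cells (-0.19 ± 0.30, adjusted p = 0.606). It had 32.1 and 13.4 RPKM in P7 DKO and 23.4 and 24.2 RPKM in P3 DKO, so that the P7 replicates lay on either side of the P3 ones, and its log2 change was -0.79 without P7 replicate 1 and 0.41 without P7 replicate 2. In Ctrl cells it had 83.4 and 82.1 RPKM at P7 and 32.1 and 39.9 RPKM at P3 (1.19 ± 0.30, adjusted p = 0.0191). The 2 members that rose were Sox3 and Nanos3. Sox3, an X-linked SOX factor of progenitor spermatogonia, had 56.7 and 57.6 RPKM in P7 DKO and 15.02 and 16.3 RPKM in P3 DKO (1.80 ± 0.13, adjusted p = 1.72e-05). Nanos3, an RNA-binding protein of germ cell survival, had 15.1 and 13.7 RPKM in P7 DKO and 6.41 and 7.59 RPKM in P3 DKO (0.95 ± 0.22, adjusted p = 0.00364), a call lost at equal sums of RPKM.

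General germ cell genes were abundant in all 4 DKO libraries, as the labelled cell type requires. Ddx4, the RNA helicase that marks germ cells, had 199 and 169 RPKM in P7 DKO, against 235 and 217 RPKM in P3 DKO (-0.30 ± 0.10, adjusted p = 0.0253). That small fall is lost without P7 DKO replicate 2, without P3 DKO replicate 1 and when only the 4 DKO libraries are used. Dazl, an RNA-binding protein needed for germ cell development, had 582 and 613 RPKM in P7 DKO and 393 and 347 RPKM in P3 DKO (0.69 ± 0.13, adjusted p = 0.00105), a change of -0.04 with quantile normalization and 0.19, not past the threshold, at equal sums. Lin28a, which marks undifferentiated spermatogonia, had 16.8 and 13.8 RPKM in P7 DKO and 52.3 and 41.9 RPKM in P3 DKO (-1.56 ± 0.12, adjusted p = 2.68e-05), while the meiotic RNA-binding protein Rbm46 had 36.4 and 44.4 RPKM in P7 DKO and 14.9 and 15.4 RPKM in P3 DKO (1.35 ± 0.16, adjusted p = 0.000101). The helicase Ddx25 was lower (-1.40 ± 0.20, adjusted p = 0.000252). Of 15 pan-germ-cell genes, 8 were higher and 4 lower, beside 29.3% and 31.1% of all tested genes. At equal sums the counts were 1 and 6, beside 1621 and 6902 of all 14049 genes. The median of the 15 stayed above 0 (0.52 and 0.04). Their summed level was 1227 and 1256 RPKM in P7 DKO and 1087 and 1037 RPKM in P3 DKO.

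Among factors of piRNA-guided DNA methylation, which silences transposons in fetal and newborn germ cells, 12 of 24 were lower, beside 31.1% of all tested genes. Dnmt3l, the cofactor of the de novo methyltransferases, which entered through P3 DKO alone, had 0.465 and 0 RPKM in P7 DKO libraries, against 34.3 and 37.1 RPKM in P3 DKO libraries (-4.92 ± 0.50, adjusted p = 5.74e-05). P7 Ctrl libraries had 0.412 and 0.570 RPKM and P3 Ctrl libraries 17.97 and 13.9 RPKM (-3.50 ± 0.50, adjusted p = 0.00275), a fall of the same direction whose difference from that in DKO did not pass the test (adjusted p = 0.164). Piwil4, the nuclear PIWI protein, had 3.64 and 1.03 RPKM in P7 DKO and 29.1 and 28.9 RPKM in P3 DKO (-3.29 ± 0.30, adjusted p = 3.92e-05), against 11.1 and 12.5 RPKM in P7 Ctrl and 24.6 and 23.97 RPKM in P3 Ctrl (-0.98 ± 0.30, adjusted p = 0.0374).

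Piwil1, a PIWI protein best known from later meiotic cells, had 1.28 and 0.979 RPKM in P7 DKO and 10.01 and 11.7 RPKM in P3 DKO (-2.48 ± 0.16, adjusted p = 1.36e-05). The tudor proteins Tdrd9 and Tdrd6, which act with PIWI proteins, had log2 changes of -1.42 ± 0.12 and -1.75 ± 0.25 (SE). The 1 higher member was Tdrkh, a tudor protein of mitochondria-bound piRNA processing, named after its value was seen (0.50 ± 0.19, adjusted p = 0.0438). Of the 24, 21 reached 1 RPKM in all 4 libraries, and the median was -0.31. With quantile normalization none of the 24 was higher and 18 lower, beside 4087 and 3573 of all 14049 genes. At equal sums none was higher and 20 lower, beside 1621 and 6902 of all genes. The list median minus that of all genes was -0.30 in the main fit, -0.76 with quantile normalization and -0.36 at equal sums. In Ctrl cells 3 were higher and 5 lower.

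**Figure D3:**
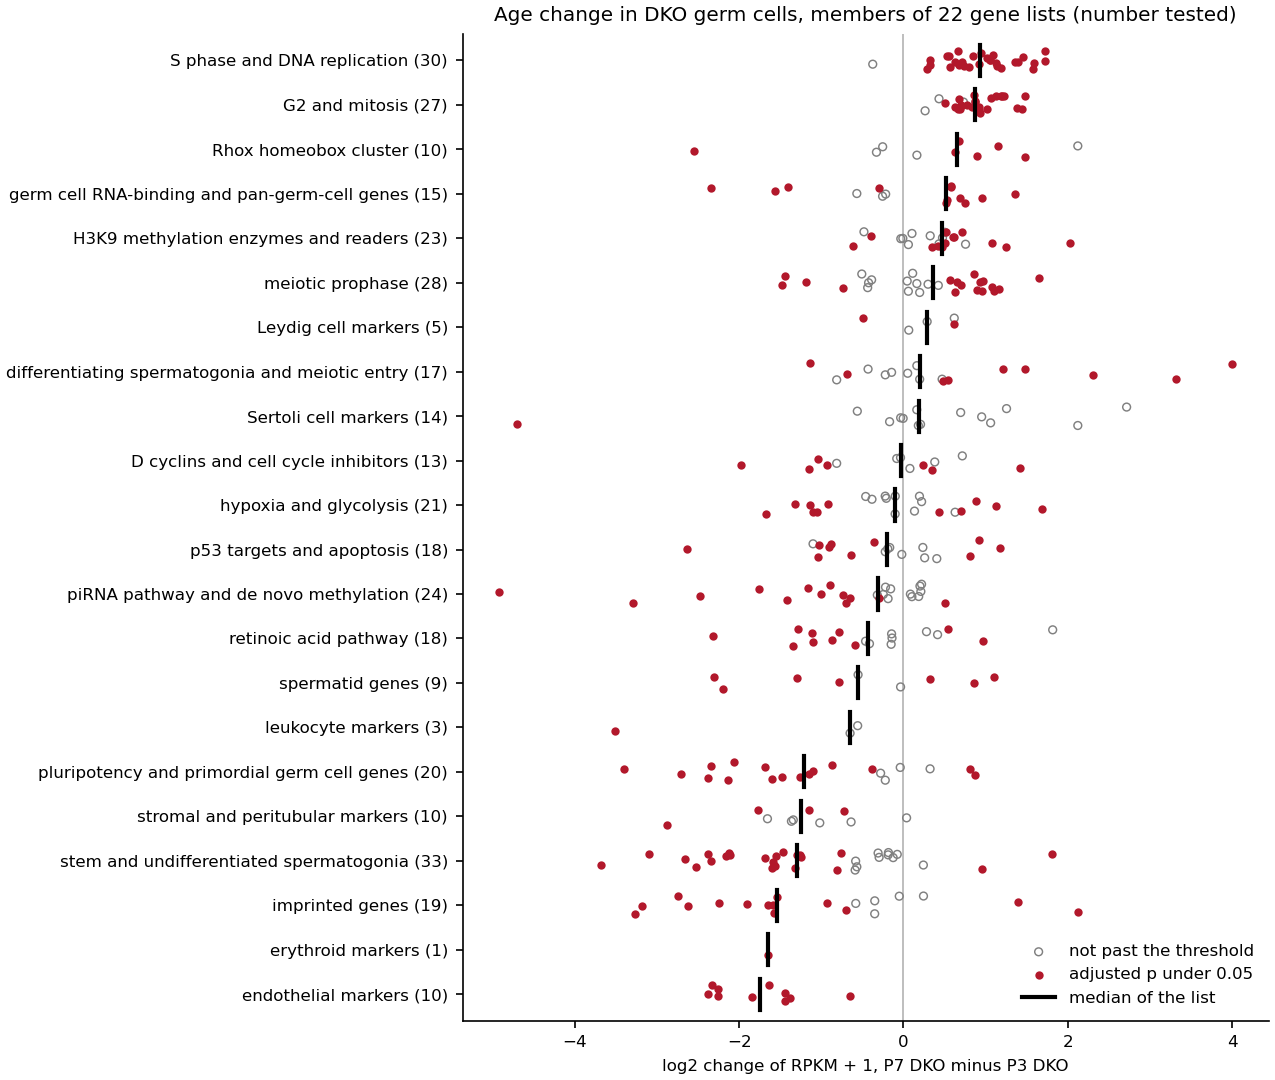
Log2 change of RPKM + 1 in P7 DKO minus P3 DKO for each tested member of 22 gene lists, filled where the adjusted p is under 0.05, with black bars for list medians. Medians run from 0.93 for S phase to -1.74 for endothelial markers, and at equal sums of RPKM those of meiotic prophase, differentiation, H3K9 and Sertoli genes turn from positive to negative (that of spermatid genes turns positive with quantile normalization).

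Pluripotency and primordial germ cell genes included falls in both genotypes. Of 20 tested, 2 were higher and 14 lower in P7 DKO, beside 29.3% and 31.1% of all tested genes, with a median of -1.21. Of the 14, 7 entered through P3 DKO alone and had to be lower, which leaves 7 lower of the other 13. Over all tested genes that did not enter so, 2750 of 12290 were lower. In Ctrl cells 1 was higher and 13 lower (backgrounds 10.5% and 14.3%), with a median of -0.78. Pou5f1, the factor OCT4, had 18.8 and 9.92 RPKM in P7 DKO, against 58.2 and 70.2 RPKM in P3 DKO (-2.14 ± 0.22, adjusted p = 6.41e-05). Gsc, the homeobox gene goosecoid, had 2.71 and 0.643 RPKM in P7 DKO and 26.1 and 24.2 RPKM in P3 DKO (-3.40 ± 0.34, adjusted p = 5.17e-05), beside 0.648 and 1.49 RPKM in P7 Ctrl and 21.4 and 22.5 RPKM in P3 Ctrl. Sox2, Esrrb and Dppa3, known from pluripotent and early germ cells, had log2 changes of -2.70 ± 0.35, -2.38 ± 0.24 and -2.35 ± 0.31 (SE) and are 3 of those that entered through P3 DKO alone. The 2 higher members, named after their values were seen, were Nanog, a factor of pluripotent cells, with 3.19 and 3.44 RPKM in P7 DKO and 1.47 and 1.47 RPKM in P3 DKO (0.81 ± 0.29, adjusted p = 0.0348), and the zinc finger gene Zfp42 (0.87 ± 0.26, adjusted p = 0.014). At equal sums of RPKM neither stays among the calls.

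Imprinted genes, expressed from 1 parental copy, also fell. Of 19 tested, 2 were higher and 12 lower, beside 29.3% and 31.1% of all tested genes. The median was -1.54, and 17 reached 1 RPKM in all 4 libraries. Of the 12, 2 entered through P3 DKO alone and had to be lower, which leaves 10 lower of the other 17. Over all tested genes that did not enter so, 2750 of 12290 were lower. H19, a maternally expressed RNA, had 3.695 and 1.94 RPKM in P7 DKO, against 29.8 and 35.7 RPKM in P3 DKO (-3.18 ± 0.30, adjusted p = 4.55e-05), while Ctrl cells had 98.98 and 95.5 RPKM at P7 and 78.9 and 89.4 RPKM at P3. Its neighbour Igf2, a paternally expressed growth factor, had 4.68 and 1.89 RPKM in P7 DKO and 22.4 and 30.8 RPKM in P3 DKO (-2.75 ± 0.29, adjusted p = 6.16e-05). Rian, a maternally expressed RNA that overlaps small RNA genes on its strand and whose level is uncertain for that reason, had a log2 change of -3.27 ± 0.27. The growth factor receptor adaptor Grb10 and the Notch-like ligand Dlk1 had changes of -2.62 ± 0.46 and -2.24 ± 0.21. The 2 higher members, named after their values were seen, were Snrpn, a splicing protein gene that shares its transcript with Snurf, and Impact, a translation regulator (1.39 ± 0.23, adjusted p = 0.000597). Snrpn had 42.96 and 33.6 RPKM in P7 DKO and 6.49 and 9.71 RPKM in P3 DKO (2.12 ± 0.38, adjusted p = 0.000982).

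The Rhox homeobox cluster of the X chromosome was split. Of 10 tested members, 5 were higher and 1 lower, beside 29.3% and 31.1% of all tested genes. The median was 0.65, and at equal sums 3 were higher and 2 lower. Rhox5, the founding member, had 1.403 and 2.51 RPKM in P7 DKO, against 13.5 and 18.8 RPKM in P3 DKO (-2.55 ± 0.35, adjusted p = 0.000218), and was also lower in Ctrl cells (-2.12 ± 0.35, adjusted p = 0.00412). Rhox2a and Rhox3a, which have near-identical copies so that their values are uncertain, and of which Rhox3a entered through P7 DKO alone, had changes of 1.15 ± 0.17 and 0.89 ± 0.14 (SE). Rhox1 had 65.3 and 61.8 RPKM in P7 DKO and 42.4 and 36.6 RPKM in P3 DKO (0.67 ± 0.12, adjusted p = 0.000786), a call lost at equal sums.

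Among enzymes and readers of H3K9 methylation, the mark the lost proteins remove, 11 of 23 were higher and 2 lower, with a median of 0.47. Over all tested genes the shares were 29.3% and 31.1%. At equal sums 4 of the 23 were higher and 5 lower, with a median of -0.02 beside -0.45 for all genes. In Ctrl cells 3 of the 23 were higher and none lower (backgrounds 10.5% and 14.3%), with a median of 0.40. The difference of the age changes passed upward for 2 and downward for 2, beside 13.1% and 11.6% of all tested genes. Its median over the list was 0.04. Cbx1, the heterochromatin protein HP1 beta, had 64.5 and 63.5 RPKM in P7 DKO, against 14.6 and 15.2 RPKM in P3 DKO (2.03 ± 0.37, adjusted p = 0.00114). Ehmt1, the methyltransferase GLP that writes the mark, had 27.1 and 28.4 RPKM in P7 DKO and 10.7 and 11.6 RPKM in P3 DKO (1.24 ± 0.16, adjusted p = 0.000143), although a predicted gene overlaps it on the same strand. Suv39h1, a methyltransferase of heterochromatin, and Trim28, a corepressor, had changes of 1.08 ± 0.14 and 0.71 ± 0.09 (SE). The 2 lower members were Kdm3a itself and, named after its value was seen, Ehmt2, the partner of Ehmt1, with 125 and 130.4 RPKM in P7 DKO and 162 and 173 RPKM in P3 DKO (-0.39 ± 0.13, adjusted p = 0.0201).

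Genes of retinoic acid handling changed in both directions. Of 18 tested, 2 were higher and 8 lower, beside 29.3% and 31.1% of all tested genes, with a median of -0.44. Through P3 DKO alone 4 entered, Rarb, Aldh1a3 and Cyp26a1 among them. That leaves 5 lower of the other 14, beside 2750 of 12290 over all tested genes that did not enter so. At equal sums 1 of the 18 was higher and 10 lower, beside 1621 and 6902 of all 14049 genes. Crabp2, a retinoic acid carrier, had 2.75 and 1.67 RPKM in P7 DKO, against 13.3 and 16.3 RPKM in P3 DKO (-2.32 ± 0.40, adjusted p = 0.000839). The receptor Rarb had 0.491 and 0.792 RPKM in P7 DKO and 3.03 and 3.27 RPKM in P3 DKO (-1.34 ± 0.27, adjusted p = 0.00168). The synthesis enzyme Aldh1a3, the degrading enzyme Cyp26a1 and the retinal reductase Dhrs3 were also lower, with changes of -1.29 ± 0.29, -1.11 ± 0.19 and -1.10 ± 0.19, and these 3 calls are lost with quantile normalization. The 2 higher members, named after their values were seen, were the receptor Rxrb (0.97 ± 0.13, adjusted p = 0.000188) and the carrier Crabp1 (0.54 ± 0.19, adjusted p = 0.0282).

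Targets of p53 and genes of apoptosis gave 3 higher and 7 lower among 18, near the 29.3% and 31.1% of all tested genes, with a median of -0.21. At equal sums 2 were higher and 11 lower, with a median of -0.65 beside -0.45 for all genes. Bax, which opens mitochondria to start apoptosis, had 223 and 238 RPKM in P7 DKO, against 91.9 and 113 RPKM in P3 DKO (1.17 ± 0.23, adjusted p = 0.00165), and overlaps a predicted gene on its strand. Perp, a membrane protein of cell contacts that entered through P3 DKO alone, had 0.635 and 0.7604 RPKM in P7 DKO and 10.6 and 8.56 RPKM in P3 DKO (-2.63 ± 0.50, adjusted p = 0.00143). Sesn2, a stress sensor, was lower (-1.03 ± 0.14, adjusted p = 0.000236), and the receptor Eda2r was higher at low values (0.92 ± 0.23, adjusted p = 0.00609), a call lost without P3 DKO replicate 1.

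In the list of hypoxia and glycolysis, 5 of 21 were higher and 6 lower, near the 29.3% and 31.1% of all tested genes, with a median of -0.10. At equal sums 2 were higher and 13 lower, with a median of -0.60 beside -0.45 for all genes. Gapdh, a glycolytic enzyme often used as a constant gene, had 558 and 575 RPKM in P7 DKO, against 162 and 188 RPKM in P3 DKO (1.69 ± 0.25, adjusted p = 0.000304). Ldha, the lactate dehydrogenase of most tissues, had 47.5 and 25.9 RPKM in P7 DKO and 101 and 79.1 RPKM in P3 DKO (-1.33 ± 0.23, adjusted p = 0.000767). Pdk1, which limits pyruvate use in mitochondria, was higher (1.12 ± 0.13, adjusted p = 0.00012), and the phosphofructokinase Pfkp lower (-1.13 ± 0.33, adjusted p = 0.014), a call lost without P7 DKO replicate 2 or P3 DKO replicate 1. The peptide hormone Adm, which entered through P3 DKO alone, was lower (-1.68 ± 0.46, adjusted p = 0.0099), a call lost without P7 DKO replicate 2, without P3 DKO replicate 2 and with quantile normalization.

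Markers of other testis cells were read in the same libraries, since the labels give no sort. All 10 tested endothelial markers were lower, of which 8 entered through P3 DKO alone and so had to be lower, the 5 named here among them. The summed level of all 14 was 20.5 and 18.1 RPKM in P7 DKO and 64.3 and 75.3 RPKM in P3 DKO, against 45.5 and 48.4 RPKM in P7 Ctrl and 96.7 and 90.9 RPKM in P3 Ctrl. Pecam1, an endothelial adhesion molecule, had 0.927 and 0.683 RPKM in P7 DKO and 8.93 and 7.86 RPKM in P3 DKO (-2.38 ± 0.49, adjusted p = 0.00223), and Cdh5, the endothelial cadherin, had 0.3905 and 0.04402 RPKM in P7 DKO and 4.79 and 5.36 RPKM in P3 DKO (-2.33 ± 0.19, adjusted p = 2.85e-05). The receptors Flt1 and Eng and the clotting factor Vwf had changes of -2.26 ± 0.30, -2.26 ± 0.18 and -1.85 ± 0.37 (SE). Sox17 was listed at 0 in both P7 DKO libraries.

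Leukocyte markers summed to 10.03 and 7.21 RPKM in P7 DKO and 48.1 and 38.5 RPKM in P3 DKO. In P3 DKO that sum was mostly Fcer1g, a signalling chain of immune receptors, with 2.98 and 1.55 RPKM in P7 DKO and 39.2 and 31.6 RPKM in P3 DKO (-3.51 ± 0.39, adjusted p = 8.95e-05), the 1 member of 3 tested that passed, and the macrophage markers Csf1r and Adgre1 did not reach the filter. Stromal and peritubular markers summed to 30.9 and 31.1 RPKM in P7 DKO and 58.6 and 60.8 RPKM in P3 DKO. Of 10 tested, 4 were lower and none higher, beside 31.1% and 29.3% of all tested genes. At an unadjusted p under 0.05 in limma, which 9138 of all 14049 genes passed in either direction, the counts were 6 and 0. Through P3 DKO alone 6 entered, and 3 of the 4 lower members, Des, Cnn1 and Myh11, are among them. That leaves 1 lower of the other 4, beside 2750 of 12290 over all tested genes that did not enter so. At equal sums 8 of the 10 were lower, beside 6902 of all 14049 genes. Without the single knockouts in the model 9 were lower, and with quantile normalization 2. Des, the muscle filament desmin, and Cnn1, calponin, had changes of -2.87 ± 0.34 and -1.77 ± 0.33, while those of the receptor Pdgfra and the myosin Myh11 were -1.15 ± 0.27 and -0.72 ± 0.21. The Myh11 change is 0.27 with quantile normalization, and its call is lost without any 1 of the 4 DKO libraries and with centring by length. The Pdgfra call is lost with quantile normalization.

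Sertoli cell markers summed to 228 and 348 RPKM in P7 DKO and 238 and 241 RPKM in P3 DKO, and none of 16 was listed at 0 in these libraries. Of 14 tested, 1 was lower, Krt18, and none higher, beside 31.1% and 29.3% of all tested genes. At an unadjusted p under 0.05 in limma, which 9138 of all 14049 genes passed in either direction, the counts of the list were the same. Without the single knockout libraries 6 were higher and 2 lower. Aard and Rhox8, Sertoli genes chosen after their values were seen, had 26.2 and 57.8 RPKM and 6.21 and 12.7 RPKM in P7 DKO, and 4.49 and 5.76 RPKM and 1.22 and 1.34 RPKM in P3 DKO, with P7 replicate 2 above replicate 1 for both and both ages apart (adjusted p = 0.132 and 0.203). Leydig cell markers summed to 67.5 and 72.4 RPKM in P7 DKO and 74.1 and 64.3 RPKM in P3 DKO. That sum lay mostly in Fdx1 and Scarb1, which other cells use in steroid and lipid handling, with changes of 0.61 ± 0.11 and -0.50 ± 0.11, and the steroid enzymes Cyp11a1 and Cyp17a1 did not reach the filter. Erythroid markers summed to 0.739 and 0.844 RPKM in P7 DKO and 4.72 and 5.18 RPKM in P3 DKO, with Alas2, the haem enzyme of red cells, the single one tested (-1.64 ± 0.22, adjusted p = 0.000205), which entered through P3 DKO alone. The part of these cell types in the changes of the other lists was not tested.

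The largest rises named by the rule held 2 histone genes and 2 of the meiotic entry genes above. Fmr1nb, an X-linked gene best known from testis, had 156 and 185 RPKM in P7 DKO, against 24.4 and 22.6 RPKM in P3 DKO (2.80 ± 0.12, adjusted p = 1.73e-06). Hmgn5, an X-linked nucleosome-binding protein, had 64.6 and 76.9 RPKM in P7 DKO and 3.37 and 5.14 RPKM in P3 DKO (3.79 ± 0.62, adjusted p = 0.000571), and rose in Ctrl cells too (2.58 ± 0.62, adjusted p = 0.0161). Hist1h1a, a linker histone, had 15.4 and 13.5 RPKM in P7 DKO and 0.681 and 1.86 RPKM in P3 DKO (2.81 ± 0.36, adjusted p = 0.000169). Hist1h4i is a histone H4 gene with near-identical copies, so its change (3.54 ± 0.33, adjusted p = 4.47e-05) is uncertain.

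Cd209c, a C-type lectin gene, reached 1669 and 1505 RPKM in P7 DKO, against 374 and 137 RPKM in P3 DKO (2.80 ± 0.41, adjusted p = 0.000339). The P3 DKO replicates differed more than 2-fold and both lay far above the Ctrl libraries, which had 9.91 and 9.89 RPKM at P7 and 12.7 and 6.78 RPKM at P3. Txn1, the redox protein thioredoxin, had 197 and 179 RPKM in P7 DKO and 22.9 and 29.4 RPKM in P3 DKO (2.81 ± 0.50, adjusted p = 0.000959). Gsta3, a glutathione transferase, had 17.4 and 15.1 RPKM in P7 DKO and 1.31 and 0.891 RPKM in P3 DKO (3.04 ± 0.61, adjusted p = 0.00189).

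After Dnmt3l, the largest falls named by the rule included keratins and matrix enzymes. Krt18 and Krt7, keratins of simple epithelia, had 2.57 and 0.104 RPKM and 0.0289 and 0.1505 RPKM in P7 DKO, and 57.9 and 44.5 RPKM and 16.4 and 17.4 RPKM in P3 DKO. Plac8, a small cysteine-rich protein, had 1.29 and 0.0844 RPKM in P7 DKO and 32.5 and 45.7 RPKM in P3 DKO (-4.65 ± 0.33, adjusted p = 1.72e-05). Dapk1, a kinase of cell death pathways, had 0.579 and 0.351 RPKM in P7 DKO and 21.6 and 27.1 RPKM in P3 DKO (-4.11 ± 0.40, adjusted p = 4.85e-05). Krt7 and Dapk1 entered through P3 DKO alone. Each of these 4 genes was lower in Ctrl cells too, with log2 changes from -4.21 for Krt18 to -3.21 for Dapk1.

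The matrix metalloproteinases Mmp9 and Mmp2, which degrade matrix proteins, had 2.701 and 1.05 RPKM and 1.11 and 0.851 RPKM in P7 DKO, and 43.8 and 48.8 RPKM and 29.3 and 27.4 RPKM in P3 DKO. Slc38a4, an amino acid transporter, had 2.87 and 0.782 RPKM in P7 DKO and 34.1 and 32.5 RPKM in P3 DKO (-3.71 ± 0.51, adjusted p = 0.000235). Rps27rt, a retrocopy of a ribosomal protein gene whose reads may belong to its near-identical parent, had 2.94 and 57.4 RPKM in P7 DKO and 539 and 207 RPKM in P3 DKO (-4.47 ± 1.61, adjusted p = 0.0342). Its replicates differed more than 2-fold at both ages, and its call is lost without a filter and without any 1 of 3 DKO libraries.

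The same interval in Ctrl cells, which shares no library with the DKO comparison, changed fewer genes. In P7 Ctrl against P3 Ctrl, 1477 genes (10.5%) were higher and 2007 (14.3%) lower, 24.8% in all, with 1.52% called and at least 2-fold higher and 6.08% lower. The median absolute log2 change was 0.33, against 0.60 in DKO cells. The Ctrl counts depend on single libraries, and 206 higher and 418 lower genes are left without P7 Ctrl replicate 1, 198 and 403 without P7 Ctrl replicate 2, and 268 and 481 without P3 Ctrl replicate 1. Both comparisons called 2595 genes, 2320 in the same direction. That is 27.3% of the DKO calls and 66.6% of the Ctrl calls. Of the 275 called in opposite directions, 119 were higher in DKO and lower in Ctrl, and 156 lower in DKO and higher in Ctrl. Across the tested genes, which are not independent replicates, the 2 age changes correlated at r = 0.58.

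**Figure D4:**
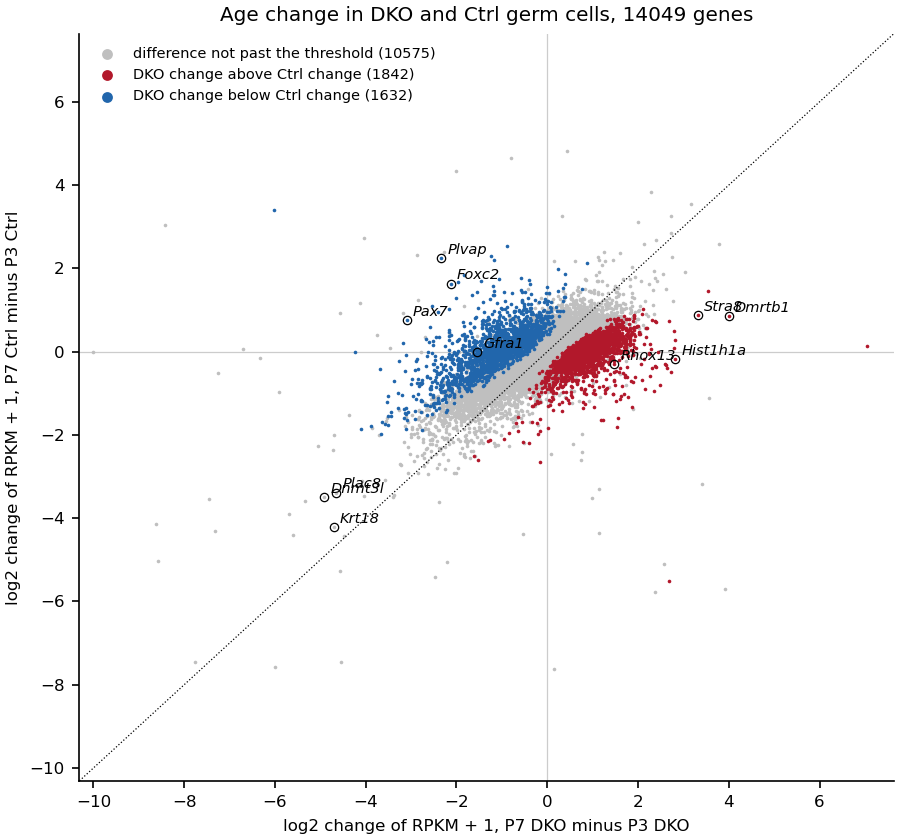
Log2 change of RPKM + 1 between P3 and P7 in DKO cells (x axis) and in Ctrl cells (y axis) for 14049 genes; 1842 genes with a DKO change above the Ctrl change are red and 1632 below it blue (adjusted p under 0.05), and the dotted line marks equal change. Stra8 lies at 3.31 and 0.87 and Plvap at -2.34 and 2.26.

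The difference of the 2 age changes was tested directly. It was positive for 1842 genes (13.1%) and negative for 1632 (11.6%), 24.7% in all, with a median SE of 0.26. At least 2-fold differences were called upward for 4.7% and downward for 6.96%. Without P7 Ctrl replicate 1, P7 Ctrl replicate 2, P3 Ctrl replicate 2 or P3 DKO replicate 2 the positive counts were 927, 926, 1176 and 999 and the negative counts 804, 782, 993 and 821. At equal sums of RPKM the counts were 597 and 3226.

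In the panel the largest positive differences were those of Dmrtb1 (3.14 ± 0.25, adjusted p = 0.000159) and Stra8 (2.44 ± 0.39, adjusted p = 0.00259). Rhox13, Kit and Sox3 followed, with 1.76 ± 0.16, 1.49 ± 0.28 and 1.02 ± 0.18 (SE). Dazl differed by 0.73 ± 0.18 and lost this call at equal sums, with quantile normalization and without any 1 of 4 libraries. The Kit difference joins a change in DKO cells that did not pass with a fall in Ctrl cells that did. Negative differences past the threshold were those of Plvap (-4.60 ± 0.26, adjusted p = 3.58e-05), Foxc2 (-3.76 ± 0.41, adjusted p = 0.000603) and Zbtb16 (-1.37 ± 0.42, adjusted p = 0.038), the Zbtb16 call being lost without any 1 of 6 libraries, without a filter, with centring by length and when only the compared groups are used.

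For Gfra1 and Id4 the difference did not pass, at -1.55 ± 0.54, adjusted p = 0.0607 and -1.18 ± 0.48, adjusted p = 0.0953, nor did it for Sycp3 (0.87 ± 0.35, adjusted p = 0.0914), Ddx4 (-0.26 ± 0.14, adjusted p = 0.196), Dnmt3b (0.28 ± 0.14, adjusted p = 0.173) and Sohlh1 (-0.09 ± 0.27, adjusted p = 0.829). Kdm3a differed by -0.61 ± 0.16 (adjusted p = 0.0192), a call lost without any 1 of 5 libraries, and Kdm3b by 0.03 ± 0.30 (adjusted p = 0.952).

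Among the positive differences named by the rule, besides Dmrtb1 and Hist1h1a, were those of Mdk, Lcmt2 and Cthrc1 (Hist1h1a 2.99 ± 0.51, adjusted p = 0.00352). Mdk, the growth factor midkine, had 111 and 139 RPKM in P7 DKO and 22.9 and 19.7 RPKM in P3 DKO, against 22.2 and 18.2 RPKM in P7 Ctrl and 30.7 and 41.8 RPKM in P3 Ctrl (difference 3.30 ± 0.72, adjusted p = 0.00989). Lcmt2, an enzyme that modifies transfer RNA, had 68.7 and 88.5 RPKM in P7 DKO and 14.5 and 14.5 RPKM in P3 DKO, against 16.4 and 15.3 RPKM in P7 Ctrl and 26.3 and 36.8 RPKM in P3 Ctrl (difference 3.29 ± 0.66, adjusted p = 0.00674). Cthrc1, a secreted collagen-repeat protein, had 23.3 and 30.1 RPKM in P7 DKO and 2.58 and 3.83 RPKM in P3 DKO, with all 4 Ctrl libraries under 2 RPKM (difference 3.22 ± 0.28, adjusted p = 0.000237).

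The largest negative differences besides Plvap and Foxc2 were those of Pax7, Dmrt2, Bmp4 and Batf. Pax7 had 4.82 and 4.88 RPKM in P7 Ctrl and 2.57 and 2.39 RPKM in P3 Ctrl, a rise where DKO cells fell (difference -3.85 ± 0.31, adjusted p = 0.000184). Dmrt2, a DMRT transcription factor, had 0.804 and 1.21 RPKM in P7 DKO and 5.25 and 7.13 RPKM in P3 DKO, against 11.8 and 11.8 RPKM in P7 Ctrl and 2.25 and 2.89 RPKM in P3 Ctrl (difference -3.68 ± 0.34, adjusted p = 0.000283). Bmp4, a signalling ligand, had 0.624 and 0.418 RPKM in P7 DKO and 5.46 and 11.2 RPKM in P3 DKO, against 8.72 and 10.1 RPKM in P7 Ctrl and 3.201 and 4.57 RPKM in P3 Ctrl (difference -3.65 ± 0.41, adjusted p = 0.00066). Batf, a leucine zipper factor, had 1.54 and 0.237 RPKM in P7 DKO and 4.46 and 7.796 RPKM in P3 DKO, against 10.4 and 9.34 RPKM in P7 Ctrl and 1.798 and 3.18 RPKM in P3 Ctrl (difference -3.63 ± 0.49, adjusted p = 0.00127). In these 4 genes the DKO change was a fall and the Ctrl change a rise, each past its own threshold, though Pax7 and Bmp4, like Plvap, entered through P3 DKO alone.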

How the data were processed

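RNA of male germ cells was sequenced after a stranded mRNA library preparation, per the labels' protocols, and the authors deposited RPKM values for 24340 gene symbols in each of 14 libraries. Per the submitters' processing notes, TopHat2 2.1.1, Cufflinks 2.1.1 and mm10 were used. The annotation, and whether strand was used in counting, are not given in the sources used here, so reads of a gene and of an antisense partner (Gfra1, Id4, Sycp3, Piwil4, Pou5f1 and others) cannot be told apart. Coordinates come from GENCODE on GRCm38, which matched 23306 symbols (95.8%), and promoters from RefSeq.

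Depth was estimated as 14850000 to 56300000 fragments, from steps between low values that came within 0.2 of whole for 79.8 to 84.9% of values (40% by chance), too few to recover reads. Genes reaching 1 RPKM in 2 or more of the 4 DKO libraries were tested with limma 3.58.1 in R 4.3.3 on log2(RPKM + 1), with a pseudocount of 1, a coefficient for each of 7 groups and a trended spread, two-sided, with Benjamini-Hochberg adjustment over the 14049 genes at 0.05. Errors of log2 changes are SE. A permutation test of 2 against 2 libraries cannot go below p = 0.333. In simulated data for P7 DKO against P3 DKO with 14049 genes, 69% of 100 genes changed by 1 (log2) and 89% of 100 changed by 2 were recovered, with 8 false calls. The simulation drew the spread of each gene independently and left all other genes unchanged. The data differ in both points, so these figures do not measure recovery or false calls in them.

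The members and lists were chosen with earlier results of these data known. Named genes are the targeted genes, a panel of 15, the 10 largest rises and falls, the 6 largest differences in each direction (over 5 RPKM in the higher group, libraries not overlapping between ages), and up to 5 passing members of each list with the largest change. Predicted genes and small RNA loci are counted but not named, 1 gene taken by the rule is not reported here, and other genes are said to be chosen after their values were seen. The alternatives tried were another pseudocount, other filters, quantile and median scaling, fewer libraries, a replicate block, each library left out and, chosen after seeing the data, equal sums of RPKM, centring by transcript length and removal of small RNA loci. Replicate numbers were not taken to pair the libraries, since their deviations did not correlate in every pair of groups compared.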

Additional observations from a re-analysis of the deposited data

Results flagged for a closer look

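The age change differed between DKO and Ctrl cells at 18 of 25 genes, by limma's test of the difference itself (Benjamini-Hochberg adjusted over 14049 genes). Over all tested genes the share was 24.7%. The 25 are the targeted genes, the panel and the genes taken by the size of the difference. Mdk, Lcmt2, Cthrc1, Hist1h1a, Pax7, Dmrt2, Bmp4 and Batf were taken from genes past this threshold and had to pass. The count is therefore no separate evidence. Every value here is the log2 change between P3 and P7 in DKO cells minus that in Ctrl cells.

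Among genes of differentiation and germ cell identity the difference was 3.14 for Dmrtb1, 2.44 for Stra8, 1.76 for Rhox13, 1.49 for Kit and 0.73 for Dazl. Among genes of the stem cell list it was -4.60 for Plvap, -3.85 for Pax7, -3.76 for Foxc2 and -1.37 for Zbtb16, but 1.02 for Sox3. For Kdm3a it was -0.61.

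The remaining genes were taken by the size of the difference. It was 3.30 for Mdk, 3.29 for Lcmt2, 3.22 for Cthrc1 and 2.99 for Hist1h1a, and it was -3.68 for Dmrt2, -3.65 for Bmp4 and -3.63 for Batf. Groups of 2 libraries allow no check for a single library that stands apart.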

How the results depend on the processing

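Over the alternatives tried, the count of genes higher in P7 DKO moved by over 1.5 times at equal sums of RPKM, to 1621, and the count of lower genes without a filter, to 6670, and at equal sums, to 6902. At equal sums the difference from Ctrl cells passed for 597 genes upward and 3226 downward. Leaving out each library in turn gave 3281 to 4131 higher and 3545 to 4339 lower genes in DKO cells, 198 to 1627 and 403 to 2037 in Ctrl cells, and 926 to 1782 and 782 to 1637 for the difference, with a lone library taken to vary like the other groups; the counts that moved most are given with the libraries above. The replicate block called 4400 higher and 4622 lower genes in DKO cells, 2006 and 2547 in Ctrl cells and 2267 and 2026 for the difference, lost no call of a named gene and added those of Kdm3b in DKO cells (0.50) and of the Gfra1 difference (-1.55). The numbers were not taken to pair the libraries, since among the 4 groups compared the replicate differences correlated over 0.1 in 3 of 6 pairs of groups (0.13 between P7 DKO and P3 DKO, 0.07 between P7 Ctrl and P3 Ctrl). They did so in all 6 pairs among P3 DKO, the single knockouts and P3 Ctrl (0.12 to 0.66), libraries that also set the spread of the model, so same-numbered P3 libraries of these groups deviated together.

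The sign turned for Dnmt3b at equal sums (-0.43), for Dazl with quantile normalization (-0.042) and for Myh11 with quantile normalization (0.27). Of 119 named genes called in DKO cells, quantile normalization left the fewest, with 5 losing the call in the same direction and the 2 that turned. The cause was not tested. RPKM carry no counts, so depth limits only genes of low values, to an extent not measured here.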

Other observations

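These gene families were looked up after their values were seen, so their counts are descriptions. Over all tested genes 29.3% were higher and 31.1% lower in P7 DKO, and 10.5% and 14.3% in P7 Ctrl. Of 82 cytosolic ribosomal protein genes, 75 were higher in P7 DKO than in P3 DKO and 3 lower, with a median of 1.02 (57 and 5 at equal sums of RPKM, median 0.51), beside 24 higher and 1 lower in Ctrl cells. Rpl41, a protein of the large ribosomal subunit, had 4331 and 5563 RPKM in P7 DKO and 1090 and 1037 RPKM in P3 DKO. Subunits of respiratory complex I followed, with 32 of 36 higher and none lower (22 and 4 at equal sums), and Ndufv2 had 137 and 174 RPKM in P7 DKO and 43.7 and 42.6 RPKM in P3 DKO. Of 38 tested proteasome subunits 28 were higher and 3 lower, with a median of 0.68 (18 and 5 at equal sums, median 0.18). Histone genes of the Hist clusters have near-identical copies, and of 20 tested, out of 68 in the files, 15 were higher and none lower, also at equal sums. With libraries centred within classes of transcript length, 75 ribosomal protein genes were higher and 3 lower, 30 and 1 of complex I, 27 and 3 of the proteasome, and 15 and 0 of the histones.

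The Mage a genes of the X chromosome, known for expression in testis and tumours, were higher in P7 DKO for all 7 tested of 8 in the files, also at equal sums. Their summed level was 224 and 263 RPKM in P7 DKO and 97.1 and 76.4 RPKM in P3 DKO, against 40.6 and 41.8 RPKM in P7 Ctrl and 72.7 and 65.3 RPKM in P3 Ctrl. The difference of the age changes passed for all 7. The copies are near-identical, so values of single members are uncertain. Among 498 tested protein-coding genes of the X chromosome, 42.6% were higher and 16.3% lower in P7 DKO, with a median of 0.39, while on autosomes 25.1 to 34.9% were higher. In Ctrl cells 14.7% of the X-linked genes were higher and 8.03% lower.

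Keratins and collagens went the other way, with 19 of 22 and 24 of 29 tested members lower in P7 DKO and none higher. Over all tested genes 31.1% were lower and 29.3% higher. In Ctrl cells 12 keratins were lower and none higher, and 11 collagens lower and 1 higher. Krt8, the partner of Krt18, had 0.723 and 0.338 RPKM in P7 DKO and 16.3 and 17.9 RPKM in P3 DKO, and Col6a2, a collagen chain, had 0.589 and 0.366 RPKM in P7 DKO and 16.4 and 14.9 RPKM in P3 DKO. Both entered through P3 DKO alone and so had to be lower. The same holds for Krt7, Krt25, Krt27, Krt79, Col5a3, Col6a1, Col6a4 and Col6a5. The full number of such members was not counted, so the counts of lower keratins and collagens were in part fixed by the filter. These genes are also used by the supporting cells whose markers are given above, and the part of those cells was not tested.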
